A study of Mus musculus with 3 samples.

Results

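The 10 genes described here encode enzymes of the enterocyte brush border: the disaccharidases Lct, Sis and Treh, the alkaline phosphatase Alpi, the peptidases Anpep, Enpep, Dpp4, Ace and Mep1a, and the sphingomyelinase Enpp7. They were chosen by name for this role, and all 10 were among the 13891 genes of the table. They were followed through 5526 enterocytes of 12653 cells, in clusters named by marker genes outside the set.

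The cells came from the intestine of male ICR mice, an outbred strain, that were 3 weeks old at the start. Collection followed 2 weeks of gavage, so the mice were past 3 weeks of age by then. Each of the 3 groups was 1 library made from pooled cells of 6 mice. Group AOS 0 received no busulfan and the vehicle, water, by gavage for 2 weeks. Group B + A 0 received 1 injection of busulfan, an alkylating chemotherapy agent, at 40 mg/kg and then the same gavage, and group B + A 10 received busulfan and then 10 mg/kg of alginate oligosaccharides (AOS), short sugar chains from seaweed, each day. The source field of the labels names both busulfan libraries otherwise, B + A 0 as AOS10 and B + A 10 as B+A0; the treatment field and the titles were followed, and all values for these libraries rest on them. The mice of the 3 groups carried no labelled genetic change, and with 1 library per group no difference between groups has a replicate check. The segments of the intestine were not labelled apart, so duodenal-like and ileal-like cells of a library are known only by their genes. Intervals are at the 95% level and reflect counting error alone. Where 3 values stand in a row without names, the first is AOS 0, the second is the library with busulfan alone and the last is B + A 10.

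The brush border is the microvillus membrane of the absorptive cell, where the last steps of digestion take place. Lactase (Lct) splits milk sugar and is the disaccharidase of the suckling period, whereas sucrase-isomaltase (Sis) and trehalase (Treh) split the sugars of solid food and rise around weaning in rodents. Aminopeptidase N (Anpep), glutamyl aminopeptidase (Enpep), dipeptidyl peptidase 4 (Dpp4), angiotensin converting enzyme (Ace) and meprin 1 alpha (Mep1a) cut peptides at the cell surface. Intestinal alkaline phosphatase (Alpi) removes phosphate groups from nutrients and bacterial lipopolysaccharide, and alkaline sphingomyelinase (Enpp7) digests sphingomyelin. Cdx2, Hnf4a and Gata4 are transcription factors known for the control of such genes.

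The promoters of 4 of the genes are shown because the results turn on them: Lct and Sis for the contrast of milk and solid food, Alpi for the duodenal cells and Mep1a for the ileal cells. They are RefSeq sequences of GRCm38.p6, 5′ to 3′ on the strand of the gene, from 250 bases before the start to 50 bases after it. Capitals mark every match, on either strand, to TTTAT or TTTAC (Cdx factors), GATAA (GATA factors) or CAAAGT (the core of HNF4 sites), and a TTTAT match can overlap a GATAA match on the other strand.
Lct, chr1:128328269-128328568, minus strand: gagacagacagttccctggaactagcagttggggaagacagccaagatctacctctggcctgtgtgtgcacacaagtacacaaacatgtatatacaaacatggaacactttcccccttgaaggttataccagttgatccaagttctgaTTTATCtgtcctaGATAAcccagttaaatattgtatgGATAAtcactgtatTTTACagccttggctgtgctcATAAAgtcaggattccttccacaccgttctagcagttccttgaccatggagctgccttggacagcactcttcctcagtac
Sis, chr3:72967814-72968113, minus strand: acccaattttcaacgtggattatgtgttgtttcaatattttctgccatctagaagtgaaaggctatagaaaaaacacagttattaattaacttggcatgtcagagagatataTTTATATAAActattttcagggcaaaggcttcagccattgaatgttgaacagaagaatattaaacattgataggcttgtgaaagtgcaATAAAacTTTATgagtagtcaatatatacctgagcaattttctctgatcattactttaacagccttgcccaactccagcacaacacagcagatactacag
Alpi, chr1:87101557-87101856, minus strand: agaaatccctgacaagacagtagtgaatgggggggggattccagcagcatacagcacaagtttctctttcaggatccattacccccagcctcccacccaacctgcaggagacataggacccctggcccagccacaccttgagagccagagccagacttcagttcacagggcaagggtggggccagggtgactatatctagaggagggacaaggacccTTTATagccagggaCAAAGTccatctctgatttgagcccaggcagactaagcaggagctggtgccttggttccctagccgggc
Mep1a, chr17:43502724-43503023, minus strand: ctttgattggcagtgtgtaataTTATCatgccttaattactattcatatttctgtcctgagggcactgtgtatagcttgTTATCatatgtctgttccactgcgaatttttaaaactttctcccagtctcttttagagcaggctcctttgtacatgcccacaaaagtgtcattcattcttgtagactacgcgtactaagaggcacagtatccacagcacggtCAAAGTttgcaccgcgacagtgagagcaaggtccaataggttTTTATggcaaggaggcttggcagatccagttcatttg

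The Lct window held 3 GATAA, 2 TTTAT and 1 TTTAC match, and the Sis window held 4 TTTAT matches. The Alpi window held 1 TTTAT and 1 CAAAGT match, and the Mep1a window held 2 GATAA matches, 1 TTTAT and 1 CAAAGT match. Over all 10 genes, TTTAT was found for 8, GATAA for 5, CAAAGT for 5 and TTTAC for 1. Of the 32851 promoter windows in the same RefSeq table, 40.01% held TTTAT, 31.5% TTTAC, 25.4% GATAA and 14.4% CAAAGT. These matches describe letters in the windows and say nothing of binding. In GENCODE vM21 on GRCm38 all 10 were protein coding: Lct lay at chr1:128284756-128328318, Sis at chr3:72888557-72967863, Alpi at chr1:87098002-87101606 and Mep1a at chr17:43474324-43502812, each on the minus strand.

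The enterocytes fell into 7 of the 20 clusters. Of these, 6 carried the fixed markers of a class: early-like (792 cells, led by Gsdmc2 and Dmbt1), mid-like (1105 cells, Ms4a18 and Il18), proximal-like (876 cells, Fabp1 and Rbp2), mature-like (983 cells, Slc5a12), duodenal-like (334 cells, S100g and Slc40a1) and ileal-like (995 cells, Fabp6 and Slc10a2). Reg3g and Reg3b, listed as early markers, were highest in the ileal-like cells, Gsdmc4 was at 0.350 UMIs per 10000 there and 0.342 in the early-like cells, and Gsdmc2 at 0.558 and 0.662, so these markers do not separate early-like from ileal-like cells well. Among the mid markers, Ms4a18, Il18 and Nlrp6 were highest in mid-like cells, but Il18 was at 2.07 there and 2.06 in proximal-like cells. Ms4a10 was at 2.08 in mid-like and 7.19 in mature-like cells, and Ms4a8a at 1.82 in mid-like and 3.70 in ileal-like cells. The mid markers thus do not all mark the mid-like cells. Of the proximal markers, Rbp2, Fabp1 and Khk were highest in proximal-like cells. Adh6a, however, was at 5.71 there and 7.13 in duodenal-like cells, and Creb3l3 at 3.44 there and 4.19 in mature-like cells. The duodenal marker Heph was at 1.45 in duodenal-like and 1.57 in mature-like cells, whereas the other duodenal markers were highest in duodenal-like cells. Doublet scores in the top 5% of a library were found in 10.9% of early-like cells. Cluster 11 (441 cells, led by Fam151a, Plb1 and Slc34a2) met no class and stayed unnamed; it held 85.1 Fabp6 UMIs per 10000, against 425 in the ileal-like cells. Depth differed between the libraries, with medians of 6547, 5564.5 and 3023 UMIs per enterocyte. The libraries shared 17 to 34 cell barcodes pairwise.

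Most of the 10 enzymes were lowest in early-like cells (Sis, Treh, Anpep, Enpep, Dpp4 and Ace) and highest in mature-like cells. Over the 3 libraries together, the mature-like level exceeded the early-like level for each of the 10, by a median log2 ratio of 2.83 and a range from 1.61 for Alpi to 4.26 for Ace, not counting Enpp7 in the range because its early-like level did not exceed the background defined below. By comparison, 25.5% of the 3620 genes counted in these cells were over 1.5-fold higher in the mature-like cells, so a higher level of a single gene there was common. The mature-like cells held the highest level of Lct, Treh, Anpep, Enpep, Dpp4, Ace and Enpp7 in each of the 3 libraries. Alpi was highest in the duodenal-like and Mep1a in the ileal-like cells in each library, whereas the first place of Sis moved between proximal-like, mature-like and cluster 11 cells. The plot of levels by cluster shows these orders.

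**Figure D1:**
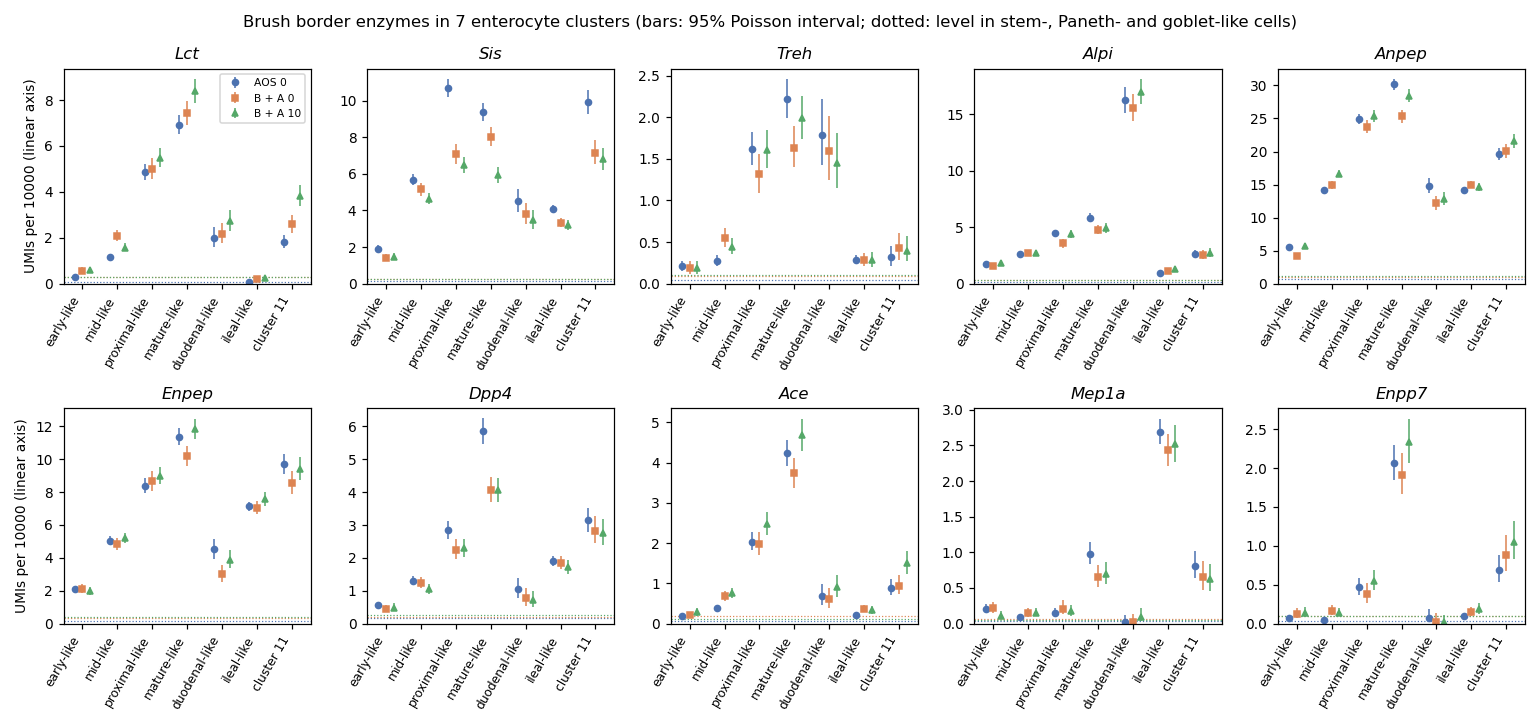
UMIs per 10000 of each of the 10 genes (linear axis from 0, a scale of its own in each panel) in the 7 enterocyte clusters, 1 point per library with its 95% Poisson interval; dotted lines give the level in stem-like, Paneth-like and goblet-like cells of each library. Alpi stands apart in duodenal-like cells and Mep1a in ileal-like cells, and Sis is highest in AOS 0 in all 7 clusters.

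Lct was mainly found in mature-like and proximal-like cells. Its level was 7.52 UMIs per 10000 (7.25 to 7.80) in mature-like cells, 5.10 in proximal-like, 2.67 in cluster 11, 2.33 in duodenal-like, 1.52 in mid-like and 0.442 in early-like cells. It was lowest in the ileal-like cells at 0.160 (0.132 to 0.193), and neighbours in this order were apart beyond counting error except cluster 11 and duodenal-like. In ileal-like cells Lct did not exceed, beyond counting error, the level in stem-like, Paneth-like and goblet-like cells of the same library, so Lct there was read as background (0.221 over the 3 libraries) and no fold against other clusters is given. With each cell thinned to 1000 UMIs, 51.6% of mature-like cells held an Lct UMI, against 1.81% of ileal-like cells.

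Sis was counted in all 7 clusters. Its level was 8.42 UMIs per 10000 (8.13 to 8.72) in proximal-like, 8.16 in cluster 11 and 7.94 in mature-like cells, and these neighbours overlapped within counting error. It was 5.22 in mid-like, 3.92 in duodenal-like, 3.67 in ileal-like and 1.66 in early-like cells. In the ileal-like cells, where Lct was at background, the log2 ratio of Sis to its mature-like level was -1.11 (-1.19 to -1.03).

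Treh was mainly found in mature-like, duodenal-like and proximal-like cells. Its level was 1.98 UMIs per 10000 (1.84 to 2.12) in mature-like, 1.60 in duodenal-like and 1.54 in proximal-like cells, and 0.396 or lower in the other 4 clusters. The early-like level, 0.194, was the lowest, and in both busulfan libraries its interval overlapped that of the background. Alpi reached 16.3 UMIs per 10000 (15.6 to 17.0) in duodenal-like cells, a log2 ratio of 1.64 (1.55 to 1.73) over the mature-like cells, and stood at 1.06 in ileal-like cells. Alpi was the only one of the 10 higher in duodenal-like than in mature-like cells; 15.2% of the 2313 genes counted were over 1.5-fold higher there.

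Anpep exceeded the background in all 7 clusters of each library, as did Enpep and Dpp4. Its level was 28.2 UMIs per 10000 (27.7 to 28.8) in mature-like, 24.8 in proximal-like, 20.4 in cluster 11, 15.1 in mid-like, 14.5 in ileal-like, 13.3 in duodenal-like and 5.21 in early-like cells. Enpep ran from 11.2 in mature-like to 2.07 in early-like cells and was still 7.21 in ileal-like cells. Dpp4 was 4.79 in mature-like cells and 0.841 in duodenal-like cells. Ace had the largest ratio of mature-like to early-like cells among the 5 peptidases (log2 4.26), at 4.22 in mature-like cells, and it stood at 0.288 in ileal-like cells. Its early-like level exceeded the background over the 3 libraries together but not in B + A 0 (0.204), so that ratio rests in part on background counts.

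Mep1a was the ileal member of the group. Its level was 2.58 UMIs per 10000 (2.46 to 2.70) in ileal-like cells, 0.8003 in mature-like, 0.707 in cluster 11 and 0.0490 in duodenal-like cells, where 7 UMIs were found and the level did not exceed the background. It was the only one of the 10 higher in ileal-like than in mature-like cells, with a log2 ratio of 1.69 (1.51 to 1.87); 19.1% of the 3830 genes counted passed 1.5-fold in that direction. Enpp7 was mainly found in mature-like cells, at 2.10 (1.96 to 2.26) in mature-like, 0.860 in cluster 11 and 0.471 in proximal-like cells. In early-like, mid-like and duodenal-like cells its summed level, 0.102, 0.103 and 0.0350, did not exceed the background.

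Genes outside the set with the most similar pattern over the 20 clusters were found by Pearson's r of log2(UMIs per 10000 + 0.1), among 9296 genes. Lct was most like Cyp4v3 (0.97), Asah2 (0.97), a ceramidase of the brush border, and Ms4a10 (0.96). Sis was most like Igsf9, Mogat2 and Slc5a1, the sodium glucose transporter, at 0.98 each. Mep1a was most like Slc5a8 (0.97), Tmigd1 (0.95) and Slc10a2 (0.94), the ileal bile acid transporter. Treh led to Mme (0.98), another brush border peptidase, H2-Q1 and H2-Bl, and Alpi to Abhd3 (0.97), Slc25a45 and Cdk18. Anpep and Enpep shared Ces2e as first neighbour (0.99 for both), Ace led to Cyp4v3 (0.99), Dpp4 to Glrx (0.96) and Enpp7 to Slc5a4b (0.94). The clusters share libraries and depth, so these values are descriptions.

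All 10 transcripts were also counted outside enterocytes, at a level that differed between the libraries. In stem-like, Paneth-like and goblet-like (cluster 8) cells together, Lct stood at 0.0509, 0.301 and 0.304 UMIs per 10000. These were 2.61%, 11.99% and 10.4% of the enterocyte level of the same library. The background of all 10 genes was higher in B + A 0 than in AOS 0, by a median log2 ratio of 1.02 (lowest 0.23 for Dpp4, highest 2.57 for Lct), and of all 10 in B + A 10 than in AOS 0, by a median of 1.09. Thinned to 1000 UMIs per cell, 22.7% of enterocytes held an Lct UMI and 74.1% an Anpep UMI, against 2.53% and 8.76% of Paneth-like cells; without thinning the values were 50.02% and 96.0% against 32.0% and 69.1%, at median depths of 4604 and 17323 UMIs. The goblet-like cluster 14, where 55.7% of cells had doublet scores in the top 5% of their library, held 9.07 Anpep UMIs per 10000. The T-like cluster 16, where 5.10% of cells had such scores, held an Anpep UMI in 35.4% of its thinned cells. Neither was used as background. T-like and Paneth-like cells had been planned as the background, so leaving out cluster 16 departed from the plan and, for Anpep, gave a lower background. Statements on levels above the background, or with it subtracted, hold for the clusters used.

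**Figure D2:**
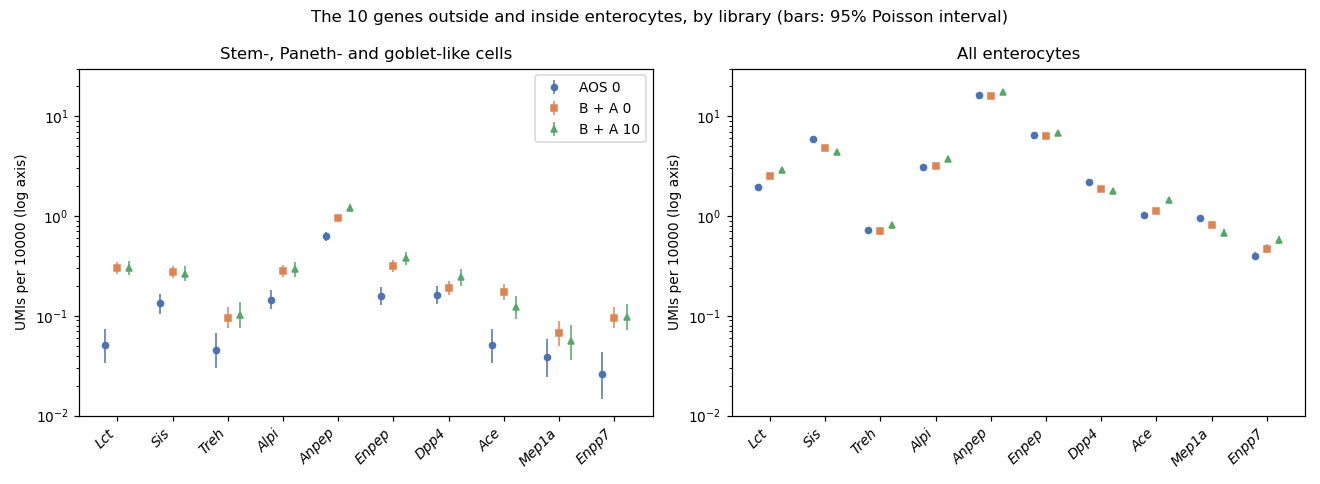
UMIs per 10000 (log axis) of the 10 genes in stem-like, Paneth-like and goblet-like cells (left) and in all enterocytes (right), 1 point per library with its 95% Poisson interval. Outside enterocytes AOS 0 is the lowest library for all 10 genes, and Lct rises there from 0.0509 to 0.304.

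The order of the libraries differed between members in all enterocytes. Anpep stood at 16.3, 15.9 and 17.5 UMIs per 10000, Enpep at 6.54, 6.32 and 6.81 and Alpi at 3.11, 3.19 and 3.71, so that B + A 10 was the highest for each. Ace was lowest in AOS 0, at 1.02, 1.12 and 1.45, and Enpp7 likewise, at 0.402, 0.471 and 0.573. Dpp4 and Mep1a were highest in AOS 0, at 2.18, 1.87 and 1.79 for Dpp4 and 0.9501, 0.821 and 0.679 for Mep1a. In the cluster with the highest level of each, duodenal-like Alpi was 16.2, 15.5 and 17.0, ileal-like Mep1a 2.69, 2.43 and 2.52 and mature-like Enpp7 2.06, 1.92 and 2.34 UMIs per 10000. Duodenal-like cells were 4.54%, 6.24% and 7.05% of the enterocytes. Within single clusters, Alpi was higher in B + A 10 than in AOS 0 beyond counting error in 1 of 7, and lower in 1, the mature-like cells (-0.25, interval -0.40 to -0.10). Mature-like Dpp4 was 5.85, 4.08 and 4.06, Anpep 30.2, 25.3 and 28.4, Enpep 11.4, 10.2 and 11.8 and Ace 4.23, 3.73 and 4.68, so that B + A 0 was lower than AOS 0 for each of these 4.

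The comparison of B + A 0 with AOS 0 asks what busulfan changed. In all enterocytes none of the 10 enzymes moved past 1.5-fold, against 1.44% of the 6582 genes counted that were higher by this measure and 0.927% that were lower. Lct was higher in B + A 0 by a log2 ratio of 0.37 (0.28 to 0.45), and Sis was lower by -0.30 (-0.35 to -0.24). Dpp4 (-0.22), Mep1a (-0.21) and Anpep (-0.03) were lower, and Enpp7 (0.23) and Ace (0.13) higher, beyond counting error. Treh, Alpi and Enpep had intervals that included 0. Thus 3 of 10 were higher and 4 lower beyond counting error, where 10.2% and 23.2% of all genes were. Such a call depends on the number of UMIs: Anpep, at -0.03, had 21220 in AOS 0 and 12791 in B + A 0. The shares of genes beyond counting error, here and below, take in all genes with at least 300 UMIs. They were not matched to the members for UMIs, so they give no measure of an excess. With the background subtracted, Ace came to -0.04 and Enpp7 to -0.00096, so that their direction was not held. Ace also turned with thinning (-0.17), per-cell means (-0.0650) and equal weights (-0.0251), and Anpep at resolution 0.4 (0.0240).

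The comparison of B + A 10 with B + A 0 asks what AOS changed after busulfan. Again none of the 10 passed 1.5-fold, against 1.28% of 6584 genes higher and 0.653% lower. The median log2 ratio of the 10 was 0.16, and that of all genes 0.04. Ace (0.38), Enpp7 (0.28), Lct (0.22), Alpi (0.22), Treh (0.18), Anpep (0.14) and Enpep (0.11) were higher beyond counting error, and Mep1a (-0.27) and Sis (-0.13) lower. These were 7 of 10 higher, where 18.4% of all genes were, and 2 lower, where 11.3% were. The direction was not held for Treh with thinning (-0.0129), for Mep1a with equal weights (0.0132) or over all cells (0.0106), or for Sis over all cells (0.12). The lower Mep1a went with fewer ileal-like cells, which made up 19.4% of the enterocytes of B + A 0 and 15.3% of those of B + A 10; within ileal-like cells the Mep1a ratio was 0.05 (-0.15 to 0.25).

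**Figure D3:**
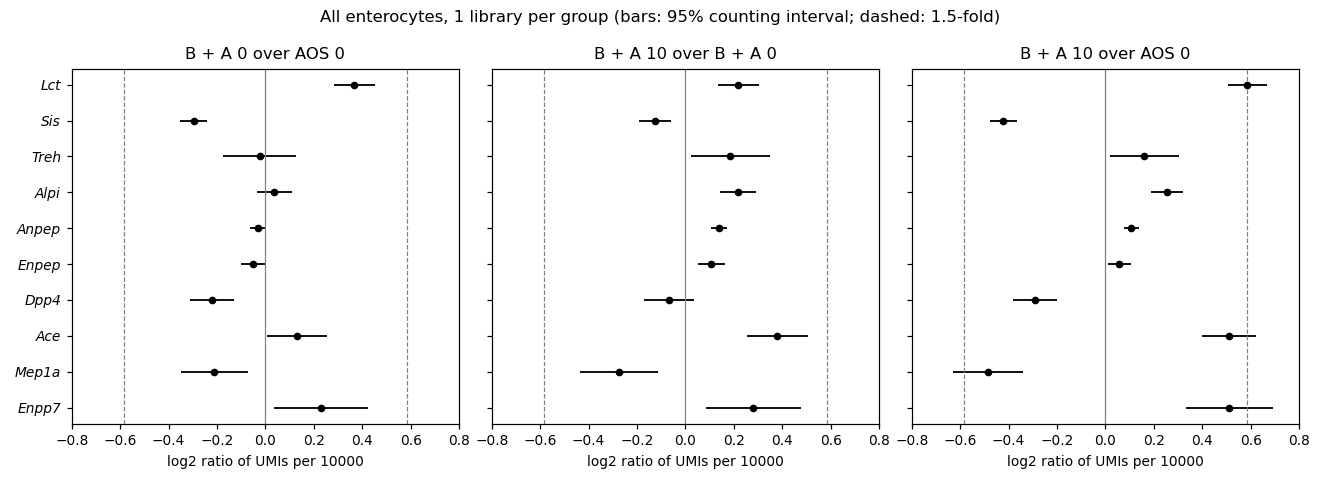
Log2 ratio of UMIs per 10000 in all enterocytes for the 10 genes in the 3 comparisons of libraries, with 95% counting intervals; dashed lines mark 1.5-fold. Lct lies to the right of 0 and Sis to the left in each comparison, and the single value at the 1.5-fold line is Lct in B + A 10 over AOS 0.

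B + A 10 against AOS 0 shares its libraries with the other comparisons. Lct was the only one of the 10 past 1.5-fold, at a fold of 1.5002 that lies on the line itself, against 3.2% of 6584 genes higher and 2.2% lower. The log2 ratios were 0.59 for Lct (0.50 to 0.67), 0.51 for Ace, 0.51 for Enpp7, -0.48 for Mep1a, -0.42 for Sis and -0.29 for Dpp4. Within mature-like cells, where Ace and Enpp7 were highest, their ratios were 0.14 (-0.02 to 0.31) and 0.18 (-0.06 to 0.42), and both intervals included 0. Ace was higher beyond counting error in 4 of 7 clusters and Enpp7 in 3 of 6. With the background subtracted in all enterocytes, Ace came to 0.46 and Enpp7 to 0.34. Beyond counting error 7 of 10 were higher, where 21.5% of all genes were, and 3 lower, where 26.1% were, again with no match for UMIs. Treh, at 0.16, turned with thinning (-0.0631) and equal weights (-0.0799), and Lct was under 1.5-fold with thinning, with equal weights, with per-cell means, with the background subtracted and without cluster 11. Within ileal-like cells, which were 20.7% of the enterocytes of AOS 0 and 15.3% of those of B + A 10, the Mep1a ratio was -0.10 (-0.27 to 0.07).

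Lct and Sis stood in opposite order in the 3 libraries. In all enterocytes Lct stood at 1.95 (1.87 to 2.02), 2.51 (2.40 to 2.62) and 2.92 UMIs per 10000 (2.81 to 3.04). Sis ran the other way, at 5.91 (5.78 to 6.05), 4.82 (4.66 to 4.97) and 4.42 (4.28 to 4.56). Lct therefore made up 24.8% (23.9 to 25.6, exact binomial), 34.3% (33.1 to 35.5) and 39.8% (38.6 to 41.0) of Lct plus Sis UMIs, and none of these intervals overlapped. With the background subtracted the shares were 24.7%, 32.8% and 38.7%. With cells thinned to 1000 UMIs, an Lct UMI was found in 19.1%, 22.4% and 25.6% of enterocytes (47.7%, 55.5% and 48.9% without thinning) and a Sis UMI in 42.6%, 37.4% and 36.0% (86.3%, 83.7% and 69.6% without thinning).

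**Figure D4:**
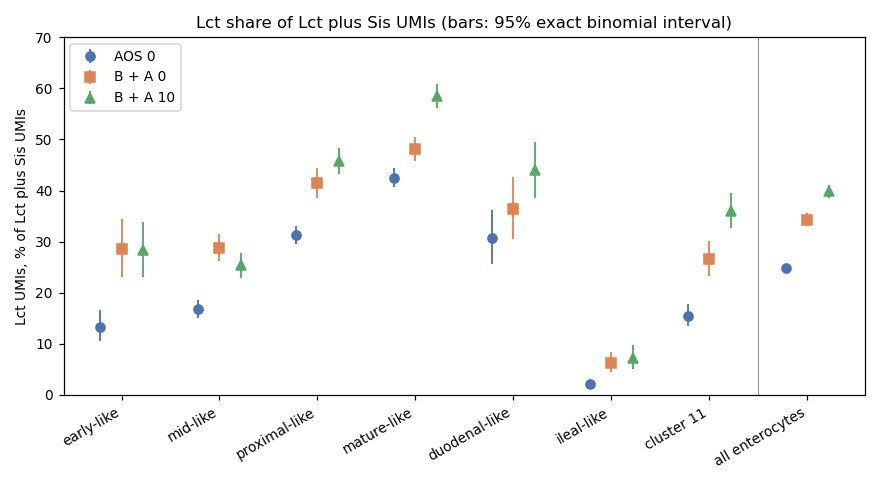
Lct UMIs as percent of Lct plus Sis UMIs in each of the 7 enterocyte clusters and in all enterocytes, 1 point per library with its 95% exact binomial interval. The share is higher in both busulfan libraries than in AOS 0 in all 7 clusters, and lowest in ileal-like cells.

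The same order held in most clusters. The Lct share was higher in B + A 0 than in AOS 0 in 7 of 7 clusters, with intervals apart in 6, and higher in B + A 10 than in AOS 0 in 7 of 7, all apart. In mature-like cells it was 42.5%, 48.1% and 58.5%. In proximal-like cells it was 31.3%, 41.4% and 45.8%, in cluster 11 cells 15.5%, 26.6% and 36.0%, and in duodenal-like cells 30.7%, 36.4% and 43.9%. B + A 10 stood above B + A 0 in 5 clusters, with intervals apart in 2; in mid-like cells the order was 16.8%, 28.8% and 25.3%, and in early-like cells 13.3%, 28.5% and 28.3%. With the background subtracted, 6 clusters gave a share in all libraries, since ileal-like Lct fell below 0 in both busulfan libraries, and AOS 0 was the lowest in 6 of 6. The early-like shares were then 12.01%, 18.6% and 18.6%, so both busulfan values were over 1.5 times lower than without the subtraction. The part of free RNA and of depth in these shares beyond that subtraction was not tested.

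Sis and Lct did not take the same part in each cluster. Sis was lower in B + A 0 than in AOS 0 in 7 of 7 clusters, with intervals off 0 in 6, and the largest difference was in proximal-like cells, from 10.7 to 7.08 UMIs per 10000, where B + A 10 had 6.48. In mature-like cells Sis was 9.36, 8.03 and 5.94. Lct in mature-like cells was 6.93, 7.44 and 8.39, so that the B + A 0 value was not apart from AOS 0 and the B + A 10 value was. Lct in mid-like cells was 1.15, 2.09 and 1.57. With the background subtracted, the log2 ratio of Lct in B + A 0 over AOS 0 was -0.03 in proximal-like, -0.06 in duodenal-like, 0.05 in mature-like and 0.10 in early-like cells, against 0.37 in cluster 11 and 0.71 in mid-like cells. That of Sis was then below 0 in all 7 clusters, from -0.65 in early-like to -0.19 in mid-like cells. Treh in all enterocytes was 0.721, 0.709 and 0.806 UMIs per 10000, and Lct made up 73.0%, 78.0% and 78.4% of Lct plus Treh UMIs.

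Both transcripts were also counted cell by cell. After thinning, 25.6% of mature-like cells held both transcripts (22.9 to 28.5), 25.9% Lct alone, 23.9% Sis alone and 24.5% neither. The product of the separate shares was 25.6%, given with no test, and 49.7% of the mature-like cells with Lct held Sis, against 49.4% of those without Lct. In proximal-like cells the share with both was 20.4% and the product 20.4%. These pooled values join libraries that differed: in proximal-like cells of B + A 0, 20.8% held both, the product was 15.9%, and Sis was found in 63.8% of cells with Lct and 41.7% of cells without it. In B + A 10 Sis was found in 43.6% of proximal-like cells with Lct and 50.6% of those without.

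The members were also compared within single clusters. In mature-like cells 8 of 10 were lower in B + A 0 than in AOS 0 beyond counting error, where 17.5% of 1741 genes were, not matched for UMIs. None passed 1.5-fold, which 3.68% of genes did downward and 7.93% upward. The 8 included Dpp4 (5.85 against 4.08 UMIs per 10000), Mep1a (0.980 against 0.654), Treh (2.22 against 1.63), Alpi (5.83 against 4.75) and Anpep (30.2 against 25.3). For the genes just named, B + A 10 lay at 4.06 for Dpp4, 0.700 for Mep1a, 1.99 for Treh, 4.90 for Alpi and 28.4 for Anpep. The Mep1a fold of B + A 0 over AOS 0, 0.6673 on 72 and 152 UMIs, lay at the 1.5-fold line without passing it. In all enterocytes Sis, Dpp4, Mep1a and Anpep of the 8 were also lower beyond counting error. Treh, Alpi and Enpep had intervals that included 0 there. Ace was higher there (0.13), or at -0.04 with the background subtracted. In mid-like cells 5 of 10 were over 1.5-fold higher in B + A 0, against 2.07% of 2803 genes: Lct, Treh, Ace, Mep1a and Enpp7. Over the 3 libraries together, mid-like Treh (249 UMIs), Mep1a (75) and Enpp7 (65) lay under the 300 UMIs required of the 2803 genes. For Treh, Mep1a and Enpp7 the 2.07% is therefore not a share of like genes. Mid-like Mep1a rested on 23 UMIs in either library, with an interval that included 0, and mid-like Enpp7 on 12 and 26 UMIs, and did not exceed the background in either library. Mid-like Mep1a did not exceed it in AOS 0. With the background subtracted, mid-like Ace came to a log2 ratio of 0.58, under 1.5-fold, so that of the 5 only Lct (0.71) and Treh (0.98) were past 1.5-fold after subtraction with levels above the background in both libraries.

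Of 18 other brush border hydrolases listed, 15 were in the table; in B + A 0 over AOS 0, 2 were over 1.5-fold higher, Naaladl1 and Akp3, both at or under 0.0286 UMIs per 10000, and 1 lower, Alppl2 (0.0613 against 0.0348). Akp3 rested on 4 and 6 UMIs, with an interval of -0.79 to 3.55, and all 3 genes lay under the 300 UMIs required of the genes behind the 1.44% and 0.927% in this comparison, so these counts have no share of like genes to be read against. The median log2 ratio of the 15 was -0.03. Mgam, the maltase-glucoamylase paired with Sis in starch digestion, was at 4.87, 4.71 and 5.12 UMIs per 10000, and its ratio of B + A 0 over AOS 0, -0.05 (-0.11 to 0.01), included 0. Mep1b, the partner of Mep1a, was 4.01, 3.94 and 3.83. In B + A 10 over B + A 0, Tmprss15, the enteropeptidase that activates trypsinogen, was higher (0.0448 against 0.0735, 36 and 63 UMIs) and Naaladl1 lower (23 and 10 UMIs), where 1.28% and 0.653% of genes with at least 300 UMIs were. In B + A 10 over AOS 0, Alppl2 was lower (-0.91, interval -1.59 to -0.27), where 2.2% of such genes were, and Akp3 had 4 and 5 UMIs with an interval that included 0.

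Of 10 listed genes of the suckling period and weaning, 7 were in the table, and 1 was over 1.5-fold higher in B + A 0 than in AOS 0, Ass1, at 0.0192 and 0.0299 UMIs per 10000 with an interval that included 0. Fcgrt, the neonatal Fc receptor for milk antibodies, was at 1.18, 1.12 and 1.06 UMIs per 10000. Arg2, an arginase, was at 6.45, 5.87 and 5.41. Prdm1, the repressor that holds the suckling programme, was at 0.0682, 0.0734 and 0.107, and passed 1.5-fold in B + A 10 over AOS 0 (0.65, interval 0.22 to 1.09). That ratio rested on 92 and 89 UMIs, where 3.2% of genes with at least 300 UMIs were higher. Glb1, the lysosomal beta-galactosidase, was the only one of the 7 higher beyond counting error in B + A 0 over AOS 0 (0.45, interval 0.14 to 0.76), and Cubn, an endocytic receptor, was lower (-0.41, interval -0.71 to -0.12), as was Arg2 (-0.13). These were 1 of 7 higher and 2 lower, where 10.2% and 23.2% of genes with at least 300 UMIs were.

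Among the transcription factors listed for these genes, Cdx2 was at 1.36, 1.08 and 0.933, with ratios of -0.33 (-0.45 to -0.21) and -0.54 (-0.66 to -0.42) over AOS 0. Hnf4g was at 3.77, 3.03 and 3.09, and Hnf4a at 2.11, 1.85 and 1.77. Gata4 at 0.359, 0.326 and 0.380 did not differ beyond counting error. Maf was at 2.78, 2.56 and 3.16.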

How the data were processed

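Single cells were prepared with the 10x Genomics 3' v2 kit, and per the labels reads were processed with Cell Ranger 2.2.0 on mm10. The authors deposited 1 table of natural log values, ln(1 + UMIs per 10000), for 13891 genes and 12653 cells, after keeping cells with at least 200 genes. From these, whole UMIs were recovered for 100% of values above 0 within 0.01 UMI. Totals were 35258551 UMIs (AOS 0), 26044381 (B + A 0) and 23003083 (B + A 10). Groups were taken from the treatment field of the labels; the source field instead names B + A 0 as AOS10 and B + A 10 as B+A0.

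Libraries were joined with Seurat 5.3.0 (20 dimensions, resolution 0.8) without the 10 genes, and clusters were named by fixed markers. Levels are summed UMIs per 10000 with exact Poisson intervals. Ratios have exact binomial intervals, and shares are Clopper-Pearson. Background genes had at least 300 UMIs in the cells compared. UMIs were counted at the 3' end, so levels of different genes are not on a common scale. Shares of Lct in Lct plus Sis or Lct plus Treh UMIs do set different genes against each other. They were read only between libraries and clusters, and their size does not measure the ratio of the transcripts in a cell. No test was possible with 1 library per group, and no p-values were computed. The intervals were tested on simulated data, with no result given here, and they leave out variation between mice and libraries. Doublets were scored with Scrublet in scanpy 1.11.5 and kept, since its automatic threshold marked 15 cells. The genes named were the 10 members, 3 fixed lists, cell markers and the 3 most similar genes of each member. Members and lists were chosen with earlier results of these data known. Protein sequences were not used here, and some listed genes are not reported here.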

Additional observations from a re-analysis of the deposited data

Results flagged for a closer look

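In 2 genes the difference between B + A 0 and AOS 0 was over 1.5-fold in at least 1 enterocyte cluster and ran the opposite way in another, each beyond counting error. Ace was higher in B + A 0 in mid-like cells (log2 ratio 0.80, 105 and 109 UMIs) and in ileal-like cells (0.75), and lower in mature-like cells (-0.18). Treh was higher in mid-like cells (1.00, interval 0.54 to 1.46) and lower in mature-like cells (-0.44, interval -0.71 to -0.18). Anpep also differed in direction, without passing 1.5-fold in any cluster: it was higher in ileal-like cells (0.08, interval 0.01 to 0.15) and lower in early-like (-0.42), duodenal-like (-0.29) and mature-like cells (-0.25). With 1 library per group the difference between clusters was not tested. With the background level of the same library subtracted, the ratios were 0.58, 0.21 and -0.23 for Ace and 0.98 and -0.50 for Treh.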

How the results depend on the processing

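The order of the Lct share of Lct plus Sis UMIs, lowest in AOS 0 and highest in B + A 10, held under every alternative run. In AOS 0 the share was 28.2% as a mean of per-cell values, 28.9% with cells thinned to 1000 UMIs, 27.1% with the classes given equal weight and 25.9% without cluster 11. In B + A 0 it was 36.1%, 36.2% and 35.8% under the first 3 of these, 35.6% over all cells and 32.8% with the background subtracted, and in B + A 10 it was 41.9%, 41.8% and 41.6% under the first 3. At the lowest fold threshold tried, 1 gene was higher in B + A 0 over AOS 0, 1 in B + A 10 over B + A 0, and 3 were higher and 2 lower in B + A 10 over AOS 0. The single gene past 1.5-fold in the last comparison, Lct, became 0 genes at a fold of 2, as a per-cell mean, with thinning, with equal weights, with the background subtracted, without cluster 11 and without the top 5% of doublet scores, and 3 genes over all cells. The median log2 ratio over all cells was -0.18, 0.40 and 0.23 in the 3 comparisons, and 0.0157 in B + A 10 over AOS 0 with equal weights. Among ratios whose interval excluded 0, direction reversed for Ace in B + A 0 over AOS 0 (-0.0650 per cell, -0.17 thinned, -0.0251 with equal weights, -0.0403 with the background subtracted), Enpp7 (-0.00096, background subtracted) and Anpep (0.0240 at resolution 0.4). In B + A 10 over B + A 0 it reversed for Treh (-0.0129 thinned), Mep1a (0.0132 with equal weights and 0.0106 over all cells) and Sis (0.12 over all cells), and in B + A 10 over AOS 0 for Treh (-0.0631 thinned, -0.0799 with equal weights). The causes were not tested. Subtracting the background and leaving out cluster 11 were chosen after seeing the data. One alternative, the ratio of Sis in its highest class at resolution 0.4, was not run because that class was absent. No paired analysis was possible because each group had 1 library.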
